A study of Mus musculus with 4 samples.

Results

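The insulin-like growth factor (IGF) system was described as 10 genes chosen by name, out of the 31053 genes counted in the files. They comprise the ligands *Igf1* and *Igf2*, the receptors *Igf1r* and *Igf2r*, and the binding proteins *Igfbp2*, *Igfbp3*, *Igfbp4*, *Igfbp5*, *Igfbp6* and *Igfbp7*. All 10 were found in the count tables by symbol and identifier. Their transcripts were counted in single cells from the region of the P14 (postnatal day 14) C57BL/6 mouse testis that contains the rete testis (RT) and the neighbouring seminiferous tubules. There were 4 libraries, 2 from control and 2 from *Sox17*-cKO testes, and the cells of 3 pups were pooled in each. *Sox17*-cKO pups carry floxed *Sox17* and a Cre driven by *Nr5a1* (SF1), a gene active in the somatic lineage of the gonad. The sample labels give the controls the SF1 Cre, whereas the methods of the study describe controls with floxed *Sox17* alleles and no Cre, so the part of the Cre cannot be told apart from that of the deletion. Pups of a library cannot be separated, and 2 libraries per genotype are the replicates.

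IGF-I and IGF-II are secreted ligands that signal through the tyrosine kinase receptor encoded by *Igf1r*. The product of *Igf2r*, the cation-independent mannose 6-phosphate receptor, takes up IGF-II and delivers it to lysosomes without a kinase signal. IGF binding proteins are secreted proteins that hold the ligands outside the cell, limit or prolong their access to the receptor and tie them to the matrix or the circulation. In the testis, insulin and IGF receptors are known for their role in the number of Sertoli cells, and IGF-I for its action on Leydig cells.

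The promoters of the members that mark the classes described below are shown so that their sequences can be read beside the levels. Each is the 250 bases before a RefSeq transcription start in GRCm38.p6, written 5' to 3' on the strand of the gene. Capitals mark matches to ACAAT (the core recognised by SOX factors), TATAAA (called TATA box), CCAAT (called CCAAT box) and GGGCGG (called GC box), each searched on both strands, so that a capital run can be the reverse complement.
*Igf1*: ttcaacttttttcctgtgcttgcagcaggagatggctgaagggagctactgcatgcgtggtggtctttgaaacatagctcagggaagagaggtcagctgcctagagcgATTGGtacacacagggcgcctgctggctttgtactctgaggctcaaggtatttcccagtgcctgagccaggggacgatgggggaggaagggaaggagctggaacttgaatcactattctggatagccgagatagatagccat
*Igfbp3*: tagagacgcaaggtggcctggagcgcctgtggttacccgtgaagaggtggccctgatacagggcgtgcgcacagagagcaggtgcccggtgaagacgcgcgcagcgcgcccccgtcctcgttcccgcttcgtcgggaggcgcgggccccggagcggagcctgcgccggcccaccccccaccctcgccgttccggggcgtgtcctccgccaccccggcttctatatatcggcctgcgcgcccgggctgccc
*Igfbp5*: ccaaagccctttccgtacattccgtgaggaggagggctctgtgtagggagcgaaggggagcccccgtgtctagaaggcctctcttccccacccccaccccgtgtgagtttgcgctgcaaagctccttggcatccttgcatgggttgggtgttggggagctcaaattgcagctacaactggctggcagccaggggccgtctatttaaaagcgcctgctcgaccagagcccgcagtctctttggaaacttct
*Igfbp6*: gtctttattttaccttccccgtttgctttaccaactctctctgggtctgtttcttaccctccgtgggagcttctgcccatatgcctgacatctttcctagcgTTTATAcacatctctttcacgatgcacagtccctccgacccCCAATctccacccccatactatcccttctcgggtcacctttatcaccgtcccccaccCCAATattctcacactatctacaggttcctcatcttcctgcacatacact
The *Igf1* window lies at chr10:87860861-87861110 on the plus strand, the *Igfbp3* window at chr11:7213924-7214173 on the minus strand, the *Igfbp5* window at chr1:72874866-72875115 on the minus strand and the *Igfbp6* window at chr15:102143936-102144185 on the plus strand. The windows of *Igfbp3* and *Igfbp5* held no match to any of the 4 motifs, that of *Igf1* held 1 CCAAT box, and that of *Igfbp6* held 1 TATA box and 2 CCAAT boxes. All 10 members were found in the RefSeq table, with 14 starts in all. The SOX core was found at 2 of the 14 starts, both of *Igf2*, against 27.7% of all 32851 windows of 250 bases. The TATA box was found at 2 starts (*Igfbp4* and *Igfbp6*) against 12.4% of windows, the CCAAT box at 3 against 33.8%, and the GC box at 6 against 32.7%. A match is a run of letters and not a binding site.

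In GENCODE vM21 (GRCm38) all 10 are protein-coding genes. *Igfbp2* (chr1:72824503-72852474, plus strand) and *Igfbp5* (chr1:72857932-72874884, minus strand) lie tail to tail, 5457 bases apart. *Igf2* lies on chr7:142650766-142666816 on the minus strand, and *Igf1r* on the same chromosome at chr7:67952827-68233668 on the plus strand. *Igf1* lies on chr10:87858265-87937042 (plus), *Igf2r* on chr17:12682406-12769664 (minus), *Igfbp3* on chr11:7206086-7213923 (minus), *Igfbp4* on chr11:99041244-99054392 (plus), *Igfbp6* on chr15:102144362-102149511 (plus) and *Igfbp7* on chr5:77349240-77408041 (minus).

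Of 46001 barcodes, 22567 cells with 1000 to 4500 detected genes were retained, 5174 to 6135 per library, with 33649565 to 42011650 unique molecular identifiers (UMIs, counted molecules) per library. Cells were clustered without the members and named by marker lists, and each class is called "-like" for that reason. The classes held 228 RT-like cells (33 to 86 per library), 354 Sertoli valve (SV) Sertoli-like cells, 5867 tubule Sertoli-like, 1650 interstitial stromal-like, 2858 fibroblast-like, 2170 myoid-like, 295 pericyte-like, 72 endothelial-like (8 to 26 per library), 229 Leydig-like, 296 macrophage-like and 6948 germ-like cells. All 6 RT markers were detected in RT-like cells, at a summed 609 to 1008 CPM (UMIs per 1000000 UMIs of the class in that library). The 8 Sertoli markers summed to 597 to 1301 CPM in RT-like cells, with *Amh* alone at 0, to 182 to 948 CPM in germ-like cells and to 12630 to 14200 CPM in tubule Sertoli-like cells. The 7 germ markers summed to 726 to 1270 CPM in tubule Sertoli-like cells, of whose 6 clusters 2 (1705 of 5867 cells) had germ markers (Sycp3, Tex101 and Sycp1 in one, Uchl1 in the other) and none of their own among the top 10 genes. Without these clusters, a setting chosen after the data were seen, the members' calls against tubule Sertoli-like cells numbered 8 for RT-like and 3 for SV Sertoli-like cells, as with them. Another tubule Sertoli-like cluster, of 800 cells, had a median of 30.25% mitochondrial UMIs and 0.495 times the median UMIs of its library. Below 10% mitochondrial UMIs were 2345 of the 5867 tubule Sertoli-like, 260 of the 354 SV Sertoli-like and 178 of the 228 RT-like cells. The 7 SV markers summed to 1409 to 2040 CPM in SV Sertoli-like and to 169 to 244 CPM in tubule Sertoli-like cells, and the 8 endothelial markers to 4377 to 6044 CPM in endothelial-like cells. *Sox17*, the targeted gene, was at 356 and 312 CPM in RT-like cells of the controls and at 45.5 and 34.6 CPM in those of *Sox17*-cKO. Stromal RNA outside its own cells differed between libraries, as the 7 fibroblast markers summed to 69.7 and 71.1 CPM in germ-like cells of the replicate 1 libraries and to 294 and 199 CPM in those of replicate 2. The level of a member in germ-like cells is therefore given beside low values, except for *Igfbp2*, *Igf1r*, *Igf2r* and *Igfbp6*, whose levels differed between germ-like clusters. The replicate number also coincides with the Cell Ranger version in the file headers (6.0.2 for replicate 1, 6.1.2 for replicate 2). Libraries shared 20 to 43 barcodes in pairs.

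The 10 genes were divided over the 11 classes large enough to be tested. *Igf1* was highest in interstitial stromal-like cells, *Igfbp5* in RT-like cells, *Igfbp3* in fibroblast-like, SV Sertoli-like and endothelial-like cells, *Igfbp7* in pericyte-like and endothelial-like cells, and *Igfbp6* in fibroblast-like, stromal-like and myoid-like cells. *Igfbp2* was highest in Leydig-like cells, and *Igf2* was near the limit of detection in every class. *Igf1r* was detected in all 11 classes.

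**Figure D1:**
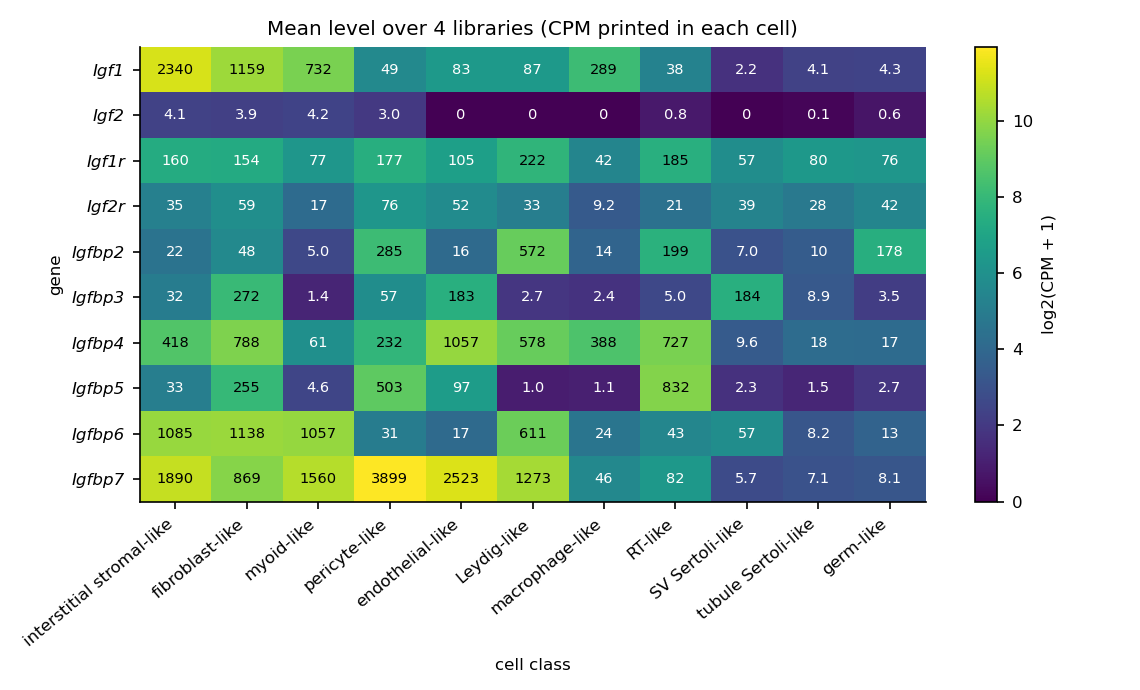
Mean level of each member (rows) in each of 11 cell classes (columns), as log2(CPM + 1) by colour with the mean CPM of the 4 libraries printed in each cell. Among these classes, which leave out 17 mesothelial-like cells, *Igf1* peaks at 2340 CPM in interstitial stromal-like cells and *Igfbp5* at 832 CPM in RT-like cells, while the SV Sertoli-like column is dark for most binding proteins other than *Igfbp3*.

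*Igf1*, the main ligand after birth, had 61763 UMIs in the retained cells. In interstitial stromal-like cells it was at 2415 and 2384 CPM in the controls and at 2417 and 2146 CPM in *Sox17*-cKO (2340 ± 131, SD, n = 4, both genotypes together). No library of another class reached that range. Fibroblast-like cells had 711 to 1465 CPM and myoid-like cells 629 to 845 CPM, ranges that overlapped, and macrophage-like cells were next with 186 to 381 CPM. Leydig-like (86.8 ± 31.4), endothelial-like (83.2 ± 58.4), pericyte-like (48.8 ± 26.6) and RT-like cells (38.3 ± 29.8 CPM) overlapped in sequence. Tubule Sertoli-like (4.11 ± 2.80) and SV Sertoli-like cells (2.21 ± 1.79 CPM) did not stand above germ-like cells (4.34 ± 3.11 CPM). The stromal and muscular classes thus held nearly all of the ligand's UMIs, with 45.0% in fibroblast-like, 32.3% in interstitial stromal-like and 18.2% in myoid-like cells. Shares were measured after a dissociation in which the supernatant with interstitial cells was discarded.

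**Figure D2:**
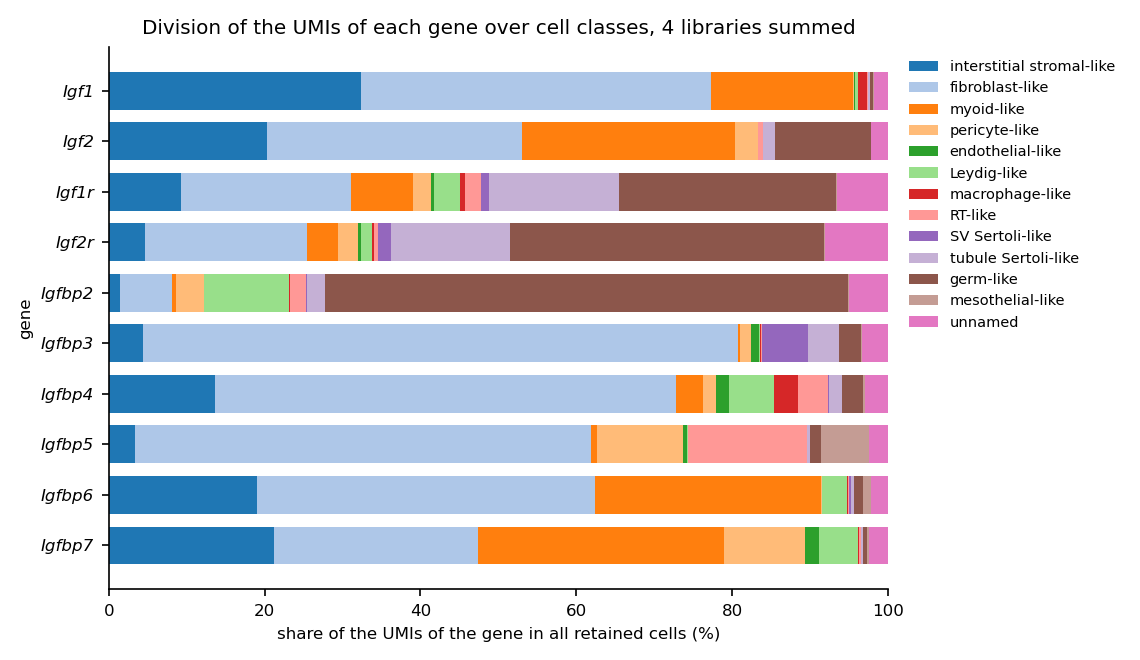
Share of each member's UMIs (horizontal axis, percent, 4 libraries summed) by cell class, with unnamed and mesothelial-like cells included. *Igf1* and *Igfbp6* lie almost wholly in interstitial stromal-like, fibroblast-like and myoid-like cells, whereas 67.0% of the *Igfbp2* UMIs were in germ-like cells and 15.3% of the *Igfbp5* UMIs in RT-like cells.

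*Igf2*, the ligand known for fetal growth and expressed from the paternal allele, was almost silent at P14. Of its 275 UMIs, 90 were in fibroblast-like (3.86 ± 2.63 CPM), 75 in myoid-like (4.24 ± 1.48), 56 in interstitial stromal-like (4.10 ± 3.92) and 8 in pericyte-like cells (3.0 ± 3.15), which overlapped in level. The far more numerous germ-like cells held 34, at 0.610 ± 0.217 CPM, and tubule Sertoli-like cells held 4. RT-like cells held 2 UMIs, both in *Sox17*-cKO 2. No UMI was counted in SV Sertoli-like cells, which allows up to 1.14 CPM, in Leydig-like cells (up to 1.12 CPM), macrophage-like cells (up to 1.33 CPM) or endothelial-like cells (up to 5.75 CPM). Limits of this kind are 3 counts over the class total and cover counting error only.

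*Igf1r*, the signalling receptor, was spread more evenly than any ligand or binding protein. RT-like cells had 185 and 192 CPM in the controls and 149 and 212 CPM in *Sox17*-cKO (185 ± 26.4). Leydig-like (222 ± 91.9), pericyte-like (177 ± 28.2), interstitial stromal-like (160 ± 24.1) and fibroblast-like cells (154 ± 32.4 CPM) had ranges that overlapped with that of RT-like cells. Tubule Sertoli-like cells had 69.3, 65.7, 69.0 and 117 CPM, in the order control 1, control 2, *Sox17*-cKO 1 and *Sox17*-cKO 2 that is kept throughout. SV Sertoli-like cells had 61.1, 34.3, 60.5 and 70.2 CPM, and were below the tubule Sertoli-like cells of the same library in all 4. Macrophage-like cells were lowest at 41.6 ± 19.4 CPM. After each cell was thinned to 2000 UMIs, 31.8% of RT-like cells, 12.4% of tubule Sertoli-like cells and 8.66% of SV Sertoli-like cells had at least 1 *Igf1r* UMI.

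*Igf2r*, the clearance receptor for IGF-II, had its highest levels in pericyte-like (76.0 ± 13.6 CPM) and fibroblast-like cells (58.5 ± 8.21 CPM). It was at 41.6 ± 7.84 CPM in germ-like, 39.5 ± 9.22 in SV Sertoli-like, 27.6 ± 5.99 in tubule Sertoli-like and 20.7 ± 4.22 CPM in RT-like cells. Neighbouring classes in this order overlapped, apart from macrophage-like cells at the end (9.25 ± 4.0 CPM). RT-like cells thus lay near the top of the order for *Igf1r* and near the bottom for *Igf2r*.

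In RT-like cells, the binding proteins with the highest rank among classes were *Igfbp5*, *Igfbp4* and *Igfbp2*. *Igfbp5*, a binding protein that attaches to extracellular matrix, was at 934, 1271, 364 and 760 CPM in RT-like cells (832 ± 377, n = 4), below the 17 mesothelial-like cells, which were too few for a test. Pericyte-like cells (289 to 840 CPM) overlapped with this range and fibroblast-like cells (180 to 303 CPM) were next, while tubule Sertoli-like cells had 0.716 to 3.01 CPM and SV Sertoli-like cells had UMIs in control 2 alone (9.14 CPM). *Igfbp5* was counted in 35 of 36, 73 of 73, 22 of 33 and 72 of 86 RT-like cells. Thinned to 2000 UMIs, 72.7% of RT-like cells had an *Igfbp5* UMI, against 0.536% of germ-like cells.

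*Igfbp4*, which restrains IGF action until a protease cleaves it, was at 601, 819, 741 and 746 CPM in RT-like cells (727 ± 90.9). Endothelial-like cells had 1169, 955, 888 and 1218 CPM (1057 ± 161), above the RT-like cells of every library, and fibroblast-like cells 788 ± 312 CPM. Germ-like cells had 17.3 ± 9.37 CPM. *Igfbp2*, abundant in many epithelia, was at 155, 222, 306 and 111 CPM in RT-like cells (198.5 ± 84.9), a range that overlapped with that of germ-like cells (178 ± 27.6) and of pericyte-like cells (285 ± 75.4). Leydig-like cells had 434, 706, 619 and 530 CPM and did not overlap with any other class. The same 3 genes were low in tubule Sertoli-like cells, where *Igfbp4* was at 17.9 ± 9.93 and *Igfbp2* at 10.1 ± 5.49 CPM.

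RT-like cells were compared with tubule Sertoli-like cells, the supporting epithelial cells of the tubules, by edgeR's quasi-likelihood test with the library as a block. Of 9 members that passed the low-count filter (*Igf2* did not), 7 were higher and 1 lower in RT-like cells, where 52.1% of the 12031 genes tested passed the threshold, 25.8% higher and 26.3% lower. The members' median log2 fold change was 3.18 against -0.07 over all genes. The largest difference was that of *Igfbp5*, with a log2 fold change of 9.03 ± 0.39 (SE, edgeR adjusted p = 3.0e-23). *Igfbp4* followed with 5.28 ± 0.25 (edgeR adjusted p = 1.7e-21) and *Igfbp2* with 4.03 ± 0.30 (edgeR adjusted p = 2.0e-15). *Igfbp7*, *Igf1* and *Igfbp6* were higher by 3.25 ± 0.48, 3.18 ± 0.48 and 2.25 ± 0.44 on the log2 scale (edgeR adjusted p at most 2.8e-05), at levels of 81.7, 38.3 and 43.2 CPM in RT-like cells. The interstitial stromal markers, of cells rich in these 3 genes, summed to 299 to 507 CPM in RT-like and to 51.1 to 73.7 CPM in tubule Sertoli-like cells. Fibroblast-like and myoid-like cells were rich in them too, but the ranges of their markers overlapped. Fibroblast markers summed to 75.6 to 303 against 73.4 to 290 CPM, and myoid markers to 37.8 to 280 against 63.0 to 202 CPM. The part of these markers in these 3 differences was not tested. By library, *Igfbp6* was at 45.4 and 104 CPM in RT-like against 3.94 and 12.4 CPM in tubule Sertoli-like cells of the controls, and at 4.14 and 19.6 against 4.49 and 12 CPM in *Sox17*-cKO, so the difference lay mainly in the controls. Of the receptors, *Igf1r* was higher by 1.03 ± 0.17 (edgeR adjusted p = 1.7e-06) and *Igf2r* had a log2 fold change of -0.64 ± 0.25 (edgeR adjusted p = 0.0275). The *Igf2r* call did not hold without *Sox17*-cKO replicate 2 (edgeR adjusted p = 0.280), with the size factors of DESeq2 (0.105) or in cells below 10% mitochondrial UMIs (0.360). *Igfbp3* did not pass (-1.37, edgeR adjusted p = 0.128), except with no filter on low counts (edgeR adjusted p = 0.0129), and had 7 UMIs in all RT-like cells.

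SV Sertoli-like cells, from the tubule end next to the RT, differed from other Sertoli-like cells in *Igfbp3*. This gene encodes the main carrier of IGFs in serum. It was at 153, 238, 210 and 136 CPM in SV Sertoli-like cells (184 ± 47.6) and at 11.1, 5.66, 8.37 and 10.6 CPM in tubule Sertoli-like cells (8.92 ± 2.47), with no overlap. At equal depth, 21.5% of SV Sertoli-like, 1.39% of tubule Sertoli-like and 0.491% of germ-like cells had an *Igfbp3* UMI. The log2 fold change was 4.18 ± 0.27 (SE, edgeR adjusted p = 3.97e-16). SV Sertoli-like cells held 5.90% of all *Igfbp3* UMIs and fibroblast-like cells 76.3%. In these 2 classes and in endothelial-like cells (277, 99.9, 224 and 129 CPM) the ranges of *Igfbp3* overlapped.

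*Igfbp6*, a binding protein with a preference for IGF-II, was also higher in SV Sertoli-like cells. It was at 28.1, 52.5, 73.5 and 72.4 CPM there against 3.94, 12.4, 4.49 and 12 CPM in tubule Sertoli-like cells, a log2 fold change of 2.70 ± 0.38 (SE, edgeR adjusted p = 4.26e-07). Fibroblast markers, whose cells hold *Igfbp6* at 1138 ± 368 CPM, summed to 52.6 to 302 CPM in SV Sertoli-like and to 73.4 to 290 CPM in tubule Sertoli-like cells. Myoid markers summed to 226 to 302 against 63.0 to 202 CPM, and Leydig markers, whose cells hold *Igfbp6* at 611 ± 307 CPM, to 125 to 153 against 12.4 to 30.8 CPM. The part of the myoid and Leydig markers in this difference was not tested. *Igf1r* was lower (-0.61 ± 0.19, edgeR adjusted p = 0.0139), a call that did not hold without control replicate 2 (0.0786) or *Sox17*-cKO replicate 2 (0.185), with the size factors of DESeq2 (0.0608) or in cells below 10% mitochondrial UMIs (0.452). These 3 were the members past the threshold of 9 tested, where 22.0% of all genes passed, 9.20% higher and 12.8% lower. With up to 6000 genes per cell, *Igf2r* (0.39), *Igfbp7* (1.83) and *Igf1* (1.41) passed as well (edgeR adjusted p at most 0.0423), and the direction of *Igfbp7* and *Igf1* had turned. The calls over all genes rose from 2648 to 3287 with that limit. *Igf2r* also passed in cells below 10% mitochondrial UMIs (0.85, edgeR adjusted p = 0.00942), and *Igfbp4* was lower with no filter on low counts (-0.97, edgeR adjusted p = 0.00575). The members' median log2 fold change was -0.28 against -0.16 over all genes.

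**Figure D3:**
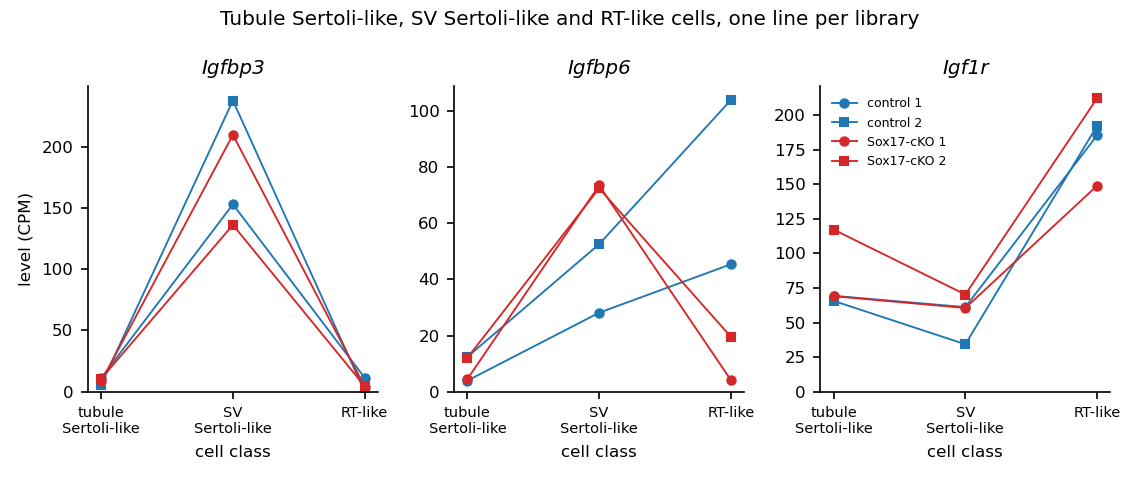
Level in CPM (vertical axes, from 0) of *Igfbp3*, *Igfbp6* and *Igf1r* in tubule Sertoli-like, SV Sertoli-like and RT-like cells, with a line for each library (blue control, red *Sox17*-cKO, circles replicate 1, squares replicate 2). *Igfbp3* rises in SV Sertoli-like cells in all 4 libraries and is at 0 to 11.3 CPM in RT-like cells, and *Igf1r* is lowest in SV Sertoli-like and highest in RT-like cells in each library.

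Directly compared, RT-like and SV Sertoli-like cells differed in 8 of 9 members, where 39.2% of genes passed, 21.4% higher and 17.8% lower. *Igfbp5* (log2 fold change 8.94 ± 0.55), *Igfbp4* (6.18 ± 0.35), *Igfbp2* (4.57 ± 0.45), *Igf1* (4.08 ± 0.81), *Igfbp7* (3.53 ± 0.71) and *Igf1r* (1.64 ± 0.21) were higher in RT-like cells, all with an edgeR adjusted p of at most 8.1e-05. *Igfbp3* and *Igf2r* were lower in RT-like cells, by log2 fold changes of -5.55 ± 0.52 (edgeR adjusted p = 7.3e-12) and -1.02 ± 0.27 (edgeR adjusted p = 0.00251). *Igfbp6* did not pass (-0.45, edgeR adjusted p = 0.453) except without control replicate 2 (-1.51, edgeR adjusted p = 0.0290). It was higher in RT-like than in SV Sertoli-like cells of both controls (45.4 against 28.1 and 104 against 52.5 CPM) and lower in both *Sox17*-cKO libraries (4.14 against 73.5 and 19.6 against 72.4 CPM). *Igf2r* did not pass without *Sox17*-cKO replicate 2 (edgeR adjusted p = 0.0614). RT-like and SV Sertoli-like cells therefore had different binding proteins, *Igfbp5*, *Igfbp4* and *Igfbp2* in RT-like and *Igfbp3* in SV Sertoli-like cells.

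Among the classes around the tubules, interstitial stromal-like and myoid-like cells differed in the other members tested but did not pass the test for *Igfbp6* and *Igfbp7*. *Igfbp6* was at 551, 1497, 749 and 1543 CPM in interstitial stromal-like cells, 713, 1395, 952 and 1492 CPM in fibroblast-like cells, and 785, 1270, 810 and 1362 CPM in myoid-like cells, so the replicate 2 libraries were higher in each class. *Igfbp7*, a secreted protein of vessel walls that binds IGFs weakly, was at 1890 ± 270 CPM in interstitial stromal-like and 1560 ± 196 CPM in myoid-like cells. Myoid-like cells, the contractile cells around the tubules, did not pass the test against interstitial stromal-like cells for *Igfbp6* (log2 fold change 0.14, edgeR adjusted p = 0.816) or *Igfbp7* (-0.18, edgeR adjusted p = 0.692). The other 7 of the 9 members were lower in myoid-like cells, where 14.5% of all genes passed the threshold, 7.86% higher and 6.59% lower. They ranged from *Igfbp3* (-4.55 ± 0.42), *Igfbp4* (-2.69 ± 0.23), *Igfbp5* (-2.69 ± 0.41) and *Igfbp2* (-2.45 ± 0.39) to *Igf1* (-1.61 ± 0.26), *Igf2r* (-0.98 ± 0.17) and *Igf1r* (-0.98 ± 0.16), with an edgeR adjusted p of at most 2.8e-05. Myoid-like cells had 1.38 ± 0.544 CPM of *Igfbp3*, no more than germ-like cells (3.53 ± 1.36).

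Fibroblast-like cells, which hold the collagen genes, had 5 members higher and 2 lower than interstitial stromal-like cells, where 23.0% of genes passed, 12.4% higher and 10.6% lower. *Igfbp5* (255 ± 57.4 against 32.8 ± 21.6 CPM, log2 fold change 3.19 ± 0.31) and *Igfbp3* (272 ± 93.3 against 31.6 ± 14.1 CPM, 2.99 ± 0.25) had the largest differences. *Igfbp4* (1.04 ± 0.21), *Igfbp2* (0.99 ± 0.29) and *Igf2r* (0.84 ± 0.15) were also higher, and *Igf1* (-1.0 ± 0.25) and *Igfbp7* (-1.05 ± 0.30) were lower, all with an edgeR adjusted p of at most 0.00778. Without control replicate 1, *Igfbp2* (edgeR adjusted p = 0.0691) and *Igf1* (0.0527) did not pass, and without *Sox17*-cKO replicate 2 *Igfbp7* did not (0.0633). With up to 6000 genes per cell *Igfbp2* did not pass (0.78, edgeR adjusted p = 0.0699). With DESeq2, *Igf1* (adjusted p = 0.0614) and *Igfbp7* (0.104) did not pass either. The ligand and these binding proteins were thus unequally divided between both stromal classes.

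Endothelial-like cells, few in number, were compared with interstitial stromal-like cells as well. *Igfbp4* (log2 fold change 1.14 ± 0.23), *Igfbp3* (1.92 ± 0.37) and *Igfbp5* (1.53 ± 0.49) were higher and *Igfbp6* (-6.06 ± 0.52), *Igf1* (-5.03 ± 0.39) and *Igf1r* (-0.86 ± 0.24) lower, 6 of 9 members, where 25.7% of genes passed, 11.2% higher and 14.5% lower (edgeR adjusted p at most 0.0151). The *Igfbp3* value rested on few cells, as 3 cells held 72.2% to 88.9% of the 18 to 23 *Igfbp3* UMIs of each library. *Igfbp5* was lower in endothelial-like than in interstitial stromal-like cells of both controls (0 against 21.3 and 38.9 against 63.8 CPM) and higher in both *Sox17*-cKO libraries (153 against 30.8 and 196 against 15.5 CPM). Its call was lost without *Sox17*-cKO replicate 1 (log2 fold change 1.33, edgeR adjusted p = 0.0908) or replicate 2 (0.35, edgeR adjusted p = 0.764), and that of *Igf1r* without control replicate 2 (0.102). *Igfbp7* was at 2046, 2880, 2030 and 3137 CPM and did not pass (0.14, edgeR adjusted p = 0.802). Pericyte-like cells, the mural cells of vessels, had the highest *Igfbp7* of all classes (3432, 3555, 4853 and 3755 CPM) with no overlap with endothelial-like cells. Pericyte markers summed to 1431, 477, 184 and 281 CPM in endothelial-like cells, and their part in the endothelial values was not tested. When the 8% of cells with the highest doublet scores were left out, 8, 1, 14 and 22 endothelial-like cells remained, so those of control 2 were nearly all among the high scores.

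Germ-like cells held 67.0% of the *Igfbp2* UMIs, 40.3% of the *Igf2r* UMIs and 27.9% of the *Igf1r* UMIs. Of all genes they held 21395061 of 42011650, 11659254 of 41477711, 15499002 of 33649565 and 10208597 of 39253574 retained UMIs by library. These shares therefore reflect the size of the class as well as its levels. By mean level, germ-like cells had rank 4 of 11 classes for *Igfbp2* and *Igf2r* and rank 9 for *Igf1r*. They were split into 6 clusters. *Igf1r* was at 169, 184, 158 and 223 CPM in the cluster led by *Zbtb16* and *Sall4*, genes of undifferentiated spermatogonia (575 cells). It was at 79.7 ± 13.0 CPM in the cluster led by *Crabp1* and *Dnmt3b*, 64.0 ± 3.43 in that led by *Dmrtb1* and *Esx1*, 89.6 ± 14.6 in that led by *Stra8*, the gene of meiotic entry, 46.4 ± 6.46 in that led by *Dmc1* and *Hfm1*, genes of meiotic recombination, and 15.2 ± 4.65 CPM in that led by *Gml*. The cluster led by *Zbtb16* and *Sall4* did not overlap with any of the others in *Igf1r*. *Igfbp2* had another order, with 222 ± 19.3 CPM in the cluster led by *Crabp1* and *Dnmt3b*, 155 ± 19.5 in that led by *Zbtb16* and *Sall4* and 66.6 ± 12.1 CPM in that led by *Gml*. *Igf2r* had its highest mean (61.1 ± 12.3 CPM) in the *Stra8* cluster and 55.0 ± 6.39 CPM in the *Gml* cluster. *Igfbp6* was at 70.4 ± 16.0 CPM in the *Zbtb16* and *Sall4* cluster and at 5.23 to 10.7 CPM, as means, in the other 5. The clusters were made from the same cells, although without the members, so these levels carry no test.

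**Figure D4:**
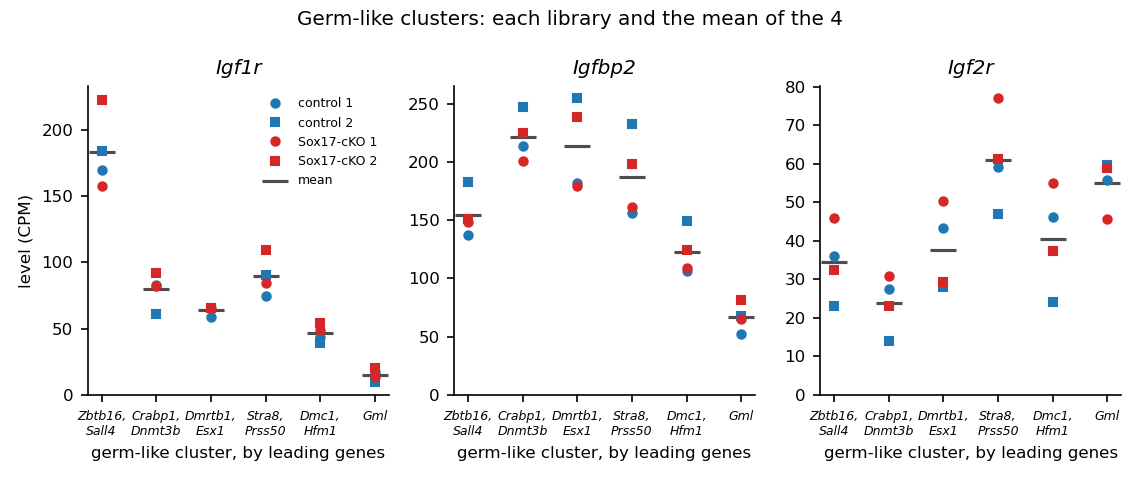
Level in CPM (vertical axes, from 0) of *Igf1r*, *Igfbp2* and *Igf2r* in 6 germ-like clusters named by leading genes, with a point for each library and a bar at the mean of 4 libraries. *Igf1r* has its highest mean, 184 CPM, in the *Zbtb16* and *Sall4* cluster and its lowest, 15.2 CPM, in the *Gml* cluster. The fall is not steady, as the *Stra8* cluster (89.6 CPM) lies above the *Crabp1* and *Dnmt3b* cluster (79.7 CPM). *Igf2r* has its highest mean, 61.1 CPM, in the *Stra8* cluster.

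*Sox17*-cKO was next compared with control in each class, the comparison the study was designed for. Over 11 classes and 87 tests of members, no member passed the threshold in edgeR's quasi-likelihood test (lowest adjusted p = 0.304). At an unadjusted p under 0.05 there were 8 of the 87, and DESeq2 called 0. Of all genes, 0.0882% passed in RT-like cells (6 of 6799) and 0% in the other 10 classes. Of the 8, 4 were in RT-like cells, of 7 members tested, where 391 of 6799 genes had an unadjusted p under 0.05. SV Sertoli-like cells had 1 of 4 members and 97 of 7339 genes, and endothelial-like cells 1 of 6 and 92 of 2736. Pericyte-like cells had 1 of 9 and 93 of 6165, and interstitial stromal-like cells 1 of 10 and 65 of 10695. By level, *Sox17*-cKO libraries lay above both controls in 9 of the 87 pairs of member and class and below both in 5. With 2 libraries per genotype such separation is common without any difference. Its share over all genes was not counted, so these counts say nothing particular about the members.

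*Igfbp5* in RT-like cells was at 934 and 1271 CPM in the controls and at 364 and 760 CPM in *Sox17*-cKO. Both *Sox17*-cKO libraries were below both controls, and the log2 fold change of -1.0 ± 0.38 (SE) did not pass (edgeR adjusted p = 0.764). Within Cell Ranger version, the ratio of *Sox17*-cKO to control was 0.390 (95% exact interval 0.302 to 0.499, counting error only) for version 6.0.2 and 0.598 (0.533 to 0.670) for version 6.1.2. The share of RT-like cells with an *Igfbp5* UMI at equal depth was 88.6% and 85.9% in the controls and 50% and 63.1% in *Sox17*-cKO. Without *Sox17*-cKO replicate 1 the log2 fold change was -0.58 and without *Sox17*-cKO replicate 2 it was -1.63, so the size depended on these libraries.

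The RT-like cells of the controls held 12 and 60 *Igfbp6* UMIs and those of *Sox17*-cKO held 1 and 13, which is 45.4, 104, 4.14 and 19.6 CPM. These groups did not overlap, and the log2 fold change was -2.44 ± 0.58 (SE, edgeR adjusted p = 0.304). The ratio of *Sox17*-cKO to control was 0.0912 (0.00213 to 0.616) and 0.188 (0.0948 to 0.347) within the versions. In control 2, 3 of 73 cells held 53.3% of the *Igfbp6* UMIs. Markers of the classes rich in *Igfbp6* were also counted in RT-like cells. Fibroblast markers summed to 75.6, 303, 132 and 199 CPM and myoid markers to 37.8, 280, 66.2 and 101 CPM, each highest in control 2. Interstitial stromal markers summed to 299, 350, 484 and 507 CPM. The part of these markers in the *Igfbp6* values was not tested. The 5 germ-like clusters other than that led by *Zbtb16* and *Sall4* had means of 5.23 to 10.7 CPM. When a library is left out, its group is a single library that is assumed to vary like the pair of the other group, here and for the genes that follow. Under that assumption the log2 fold change was -2.05 without *Sox17*-cKO replicate 1 (edgeR adjusted p = 0.00452), -4.18 without *Sox17*-cKO replicate 2 (edgeR adjusted p = 0.0119) and -1.73 without control replicate 2 (edgeR adjusted p = 0.999). With no filter on low counts it was -2.46 (edgeR adjusted p = 0.000331).

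*Igfbp7* in RT-like cells was at 18.9 and 34.6 CPM in the controls (5 and 20 UMIs) and at 203 and 70.7 CPM in *Sox17*-cKO (49 and 47 UMIs), with 4.39, 13.4, 4.13 and 10.5 CPM in germ-like cells. With no filter on low counts it passed (log2 fold change 2.08, edgeR adjusted p = 0.00094). The groups did not overlap, and the log2 fold change was 2.12 ± 0.58 (SE, edgeR adjusted p = 0.404). The ratio of *Sox17*-cKO to control was 10.7 (4.30 to 34.5) and 2.04 (1.19 to 3.64) within the versions. In *Sox17*-cKO 1, 3 of 33 cells held 49.0% of the UMIs. Without *Sox17*-cKO replicate 2, when *Sox17*-cKO 1 stood alone for its group, the log2 fold change was 2.77 (edgeR adjusted p = 0.000161, from the spread of the controls), and without *Sox17*-cKO replicate 1 it was 1.25 (edgeR adjusted p = 0.186). The 8 pericyte markers, of cells with 3899 ± 650 CPM of *Igfbp7*, summed to 11.4, 3.46, 20.7 and 15 CPM in RT-like cells, with *Higd1b* at 0, against 3742 to 5031 CPM in pericyte-like cells. The 6 interstitial stromal markers, all detected, summed to 299 and 350 CPM in RT-like cells of the controls and to 484 and 507 CPM in those of *Sox17*-cKO, against 2446 to 2996 CPM in interstitial stromal-like cells. Fibroblast markers summed to 75.6, 303, 132 and 199 CPM in RT-like cells and myoid markers to 37.8, 280, 66.2 and 101 CPM, with the genotypes overlapping. The part of these markers in the *Igfbp7* and *Igf1* values was not tested.

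*Igf1* in RT-like cells was at 26.5, 19, 24.8 and 82.7 CPM, so *Sox17*-cKO 2 alone was high, with a UMI in 29 of 86 cells. The log2 fold change was 1.41 ± 0.57 (SE, edgeR adjusted p = 0.790). Within versions the ratio was 0.938 (0.260 to 3.26) and 4.34 (2.25 to 9.21), and the former rests on 7 and 6 UMIs and shows no direction. Without *Sox17*-cKO replicate 1 it was 1.88 on the log2 scale (edgeR adjusted p = 0.00524), and without *Sox17*-cKO replicate 2 the gene did not pass the low-count filter. The members with the most even levels in RT-like cells were *Igfbp4* and *Igf1r*, with log2 fold changes of 0.03 and -0.08 (edgeR adjusted p = 0.997 for both). *Igfbp2* had a log2 fold change of 0.03, with ratios of 1.97 (1.33 to 2.97) and 0.502 (0.372 to 0.674) within the versions. In *Sox17*-cKO 1, 3 of 33 cells held 63.5% of its 74 UMIs, and the share of RT-like cells with an *Igfbp2* UMI at equal depth was 20% and 26.8% in the controls and 16.7% and 14.3% in *Sox17*-cKO.

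**Figure D5:**
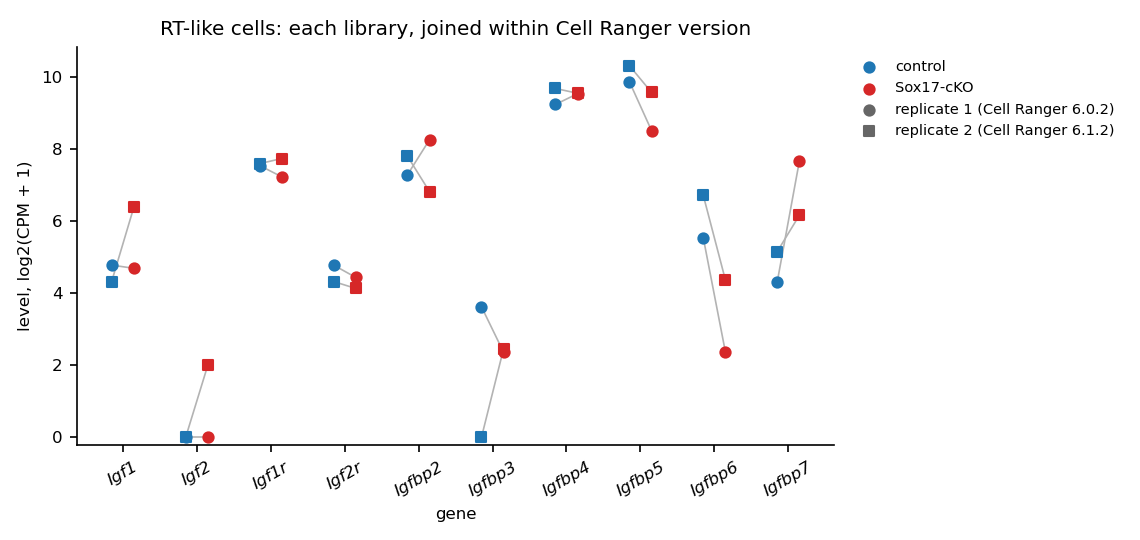
Level of each member in RT-like cells as log2(CPM + 1) (vertical axis), with a point for each library (blue control, red *Sox17*-cKO, circles replicate 1, squares replicate 2) and grey lines joining libraries of the same Cell Ranger version. *Igfbp5* and *Igfbp6* are lower and *Igfbp7* higher in *Sox17*-cKO within both versions. *Igfbp2* is higher in *Sox17*-cKO within version 6.0.2 and lower within version 6.1.2, and *Igf1* is higher within version 6.1.2 alone.

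In SV Sertoli-like cells, *Igfbp3* had a log2 fold change of -0.23 (edgeR adjusted p = 1.0), with the control and *Sox17*-cKO values interleaved. *Igfbp6* was at 28.1 and 52.5 CPM in controls and 73.5 and 72.4 CPM in *Sox17*-cKO, a log2 fold change of 0.86 ± 0.39 (SE, edgeR adjusted p = 1.0) that turned to -0.026 with up to 6000 genes per cell. *Igf1r* and *Igf2r* had log2 fold changes of 0.37 and 0.36. Among the vascular classes, endothelial-like cells had *Igfbp5* at 0 and 38.9 CPM in controls and 153 and 196 CPM in *Sox17*-cKO (0, 7, 15 and 35 UMIs). In *Sox17*-cKO 1, 3 of 14 cells held 93.3% of these UMIs, and in *Sox17*-cKO 2, 3 of 26 held 54.3%. The 6 interstitial stromal markers, all detected, summed to 231 and 405 CPM in endothelial-like cells of the controls. In those of *Sox17*-cKO they summed to 582 and 511 CPM, while interstitial stromal-like cells of *Sox17*-cKO had *Igfbp5* at only 30.8 and 15.5 CPM. In endothelial-like cells the pericyte markers summed to 1431, 477, 184 and 281 CPM. The fibroblast markers, with *Lum* and *Ogn* at 0, summed to 200, 322, 153 and 825 CPM there. The part of these markers in the *Igfbp5* difference was not tested. The genotype difference of *Igfbp5* was 2.67 ± 0.65 (SE, log2, edgeR adjusted p = 0.680), and it passed without control replicate 2 (edgeR adjusted p = 0.0173), where the control left had 8 cells and no *Igfbp5* UMI, or without *Sox17*-cKO replicate 1 (edgeR adjusted p = 0.0239), with the lone library assumed to vary like the other group. The other 2 of the 8 tests were *Igf1* in pericyte-like cells (65.9, 74.2, 15.7 and 39.4 CPM, log2 fold change -1.48) and *Igfbp5* in interstitial stromal-like cells (21.3, 63.8, 30.8 and 15.5 CPM, -1.23), with an edgeR adjusted p of 1.0 each. In the former, 3 cells held 89.5% of the 19 UMIs of control 1 and 56.7% of the 60 UMIs of control 2.

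Whether the genotype difference in RT-like cells differed from that in interstitial stromal-like and fibroblast-like cells together was tested as an interaction. The interaction was -2.56 ± 0.85 (SE, log2) for *Igfbp6*, 2.01 ± 0.70 for *Igfbp7*, 1.39 ± 0.74 for *Igf1* and -0.96 ± 0.52 for *Igfbp5*. None of 9 members passed in edgeR (adjusted p = 1.0 for each of these), where 0% of 12159 genes passed. The classes come from the same libraries, and with the library as a block 3 members passed, *Igfbp6* (-2.60 ± 0.47, edgeR adjusted p = 2.0e-05), *Igfbp7* (1.95 ± 0.40, edgeR adjusted p = 0.000295) and *Igfbp5* (-1.01 ± 0.25, edgeR adjusted p = 0.0076), where 1.19% of genes did. Without the block, at an unadjusted p under 0.05 there were 2 of the members and 416 of all genes.

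Genes around the system were described by lists. The first held 15 genes of the IGF axis outside the members, of which 10 passed the low-count filter. Against tubule Sertoli-like cells, 5 of these were higher and 2 lower in RT-like cells, where 25.8% and 26.3% of all genes passed, with a median log2 fold change of 1.68 against -0.07 over all genes. *Stc2* and *Stc1*, which encode inhibitors of the IGFBP protease PAPP-A, were higher by 7.71 ± 0.33 (edgeR adjusted p = 3.0e-23) and 6.11 ± 1.20 (edgeR adjusted p = 3.6e-05). *Igf2bp2*, an RNA-binding protein gene, was higher by 5.16 ± 0.41, *Htra1*, a secreted protease gene, by 3.50 ± 0.50, and the imprinted RNA *H19* by 2.86 ± 0.69 (edgeR adjusted p at most 0.000491). *Pappa*, the gene of PAPP-A itself, which cleaves the products of *Igfbp4* and *Igfbp5*, was lower in RT-like cells (-2.02 ± 0.44, edgeR adjusted p = 0.000154), as was the insulin gene *Ins2* (-2.42 ± 0.56, edgeR adjusted p = 0.000347).

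SV Sertoli-like cells had 5 of the 10 higher and 0 lower than tubule Sertoli-like cells, where 9.20% and 12.8% of all genes passed. They were *Igf2bp2* (3.11 ± 0.53), *Stc2* (2.82 ± 0.64), *Htra1* (1.97 ± 0.62), *Ins2* (1.33 ± 0.29) and *Pappa* (1.04 ± 0.26), with an edgeR adjusted p of at most 0.0176. *Pappa* was thus higher in SV Sertoli-like and lower in RT-like cells, each relative to tubule Sertoli-like cells, and the direct contrast was -3.06 ± 0.44 for RT-like against SV Sertoli-like cells (edgeR adjusted p = 2.7e-07). Relative to interstitial stromal-like cells, 4 of the 10 were higher in fibroblast-like cells, where 12.4% of all genes were, namely *Ins2* (3.24 ± 0.68), *H19* (1.46 ± 0.26), *Stc2* (1.22 ± 0.28) and *Htra1* (0.68 ± 0.19). In myoid-like cells *Stc2* was higher (1.90 ± 0.28) and *Pappa* lower (-1.04 ± 0.35), and in endothelial-like cells the insulin receptor gene Insr was higher (0.99 ± 0.30) and *Igf2bp2* lower (-2.30 ± 0.72, edgeR adjusted p at most 0.0394 in all 3 contrasts). *Igfbp1*, the binding protein of liver, had 0 UMIs in each of the 11 classes.

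The second list held 20 genes of insulin and IGF signalling, all tested. Of these, 7 were higher and 5 lower in RT-like than in tubule Sertoli-like cells, where 52.1% of all genes passed, with a median log2 fold change of 0.08. The adaptor genes *Irs1* (4.96 ± 0.35) and *Irs2* (1.55 ± 0.21) and *Pik3r1*, the regulatory subunit gene of PI3-kinase (3.85 ± 0.23), were higher, each with an edgeR adjusted p of at most 3.8e-08, and the kinase gene Pdpk1 (0.72 ± 0.17) and the adaptor gene Shc1 (0.61 ± 0.23) were higher by less (edgeR adjusted p at most 0.0216). *Grb10*, an adaptor that restrains the receptors, was lower (-1.63 ± 0.55, edgeR adjusted p = 0.0107), with Pik3cb (-1.30 ± 0.50), Tsc1 (-1.10 ± 0.29), Rps6kb1 (-0.59 ± 0.21) and Foxo3 (-0.59 ± 0.16, edgeR adjusted p at most 0.0266). In SV Sertoli-like cells 4 of the 20 passed, where 22.0% of all genes did. *Pik3r1* (1.21 ± 0.33) and *Irs2* (0.73 ± 0.21) were higher and *Foxo1* (-0.87 ± 0.25) and *Mtor* (-0.57 ± 0.19) lower than in tubule Sertoli-like cells (edgeR adjusted p at most 0.0267). Endothelial-like cells had 1 of 20 higher than interstitial stromal-like cells, *Foxo1* (1.86 ± 0.27), and 5 lower, where 11.2% and 14.5% of all genes passed. Those lower included Akt2 (-2.10 ± 0.36) and *Pik3r1* (-1.54 ± 0.34), and *Irs1* and *Irs2* with 0 UMIs, which allows up to 5.75 CPM. Against interstitial stromal-like cells, 2 were higher and 2 lower in fibroblast-like cells and 1 higher and 2 lower in myoid-like cells, where 23.0% and 14.5% of all genes passed. *Pik3r1* was higher in fibroblast-like (1.61 ± 0.16) and lower in myoid-like (-1.35 ± 0.17) than in interstitial stromal-like cells, *Grb10* was higher (0.63 ± 0.17) and *Irs2* lower (-0.96 ± 0.18) in fibroblast-like cells, and *Irs1* was lower in myoid-like cells (-1.12 ± 0.25, edgeR adjusted p at most 0.00334). Neither list had a gene past the threshold between genotypes in any class in edgeR, and the median log2 fold changes in RT-like cells were -0.04 and -0.06 against -0.0025 over all genes.

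The genes whose levels followed a member most closely over the 44 library and class sums were found among 7294 genes, by Pearson's r of log2(CPM + 10) as a description. For *Igf1* they were *Pid1* (r = 0.906), *Arap1* (r = 0.892) and *Steap3* (r = 0.888). For *Igfbp5* they were *Lrrn1* (r = 0.878), *Palld* (r = 0.870) and *Nr2f1* (r = 0.854), and for *Igfbp3* they were *Dbn1* (r = 0.795), *Serpine2* (r = 0.766) and *Adgrl2* (r = 0.759). *Igf2*, near its floor, was closest to *Fzd2* (r = 0.808), *Dact3* (r = 0.791) and *Scarf2* (r = 0.787). Sums of a library share its depth and its stray stromal RNA. Among the members themselves, over 11 class means, *Igf1* was closest to *Igfbp6* (r = 0.78) and *Igf1r* to *Igfbp2* (r = 0.70), and the lowest value was that of *Igfbp2* with *Igfbp3* (r = -0.24).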

How the data were processed

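Cells of P14 testes were captured with the 10x Genomics 3' kit (2 control and 2 *Sox17*-cKO libraries). The authors counted UMIs with Cell Ranger against mm10, and the deposited values are whole UMI counts per gene and barcode, without normalization. The members and lists were chosen with earlier results of these data known.

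Cells with 1000 to 4500 detected genes were retained. The 1% mitochondrial limit of the study was not applied, since it left 12 to 145 cells per library. Seurat 5.3.0 (R 4.3.3) was used to integrate and cluster them, with 2000 variable features that left out the members and listed genes, 20 principal components and resolution 0.4. Clusters were named by marker lists. SV Sertoli-like cells came from a second clustering of Sertoli-like cells. Scrublet scores (Scanpy 1.11.5) removed no cell. Scrublet called 0 to 104 of the retained cells per library, so the 8% of highest scores were left out as an alternative.

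The UMIs of each library were added up by class and tested with edgeR 4.0.16 (TMM, filterByExpr, quasi-likelihood test, Benjamini-Hochberg adjustment over all genes tested, threshold 0.05, two-sided), the steps having been tested on simulated data. P-values of the genotype tests measure the spread between libraries of pooled pups. In the contrasts between classes the library was a block, which takes differences between libraries out. Their p-values measure the spread that remains among class sums, and those sums share the same libraries and are not further replicates. Levels in CPM use all UMIs of a class, and fold changes use TMM. The RT-like sums held at least 241710 UMIs, so that a UMI was worth at most 4.14 CPM. All members are reported, with list genes past the threshold and the genes most like a member among those of at least 50 CPM in a class. Some genes of the signalling list are counted with the others, but their values are not reported here. Alternatives were no limit on low counts, DESeq2 1.42.0 and its size factors, cells below 10% mitochondrial UMIs, up to 6000 genes per cell, removal of high doublet scores, members kept in the features, no integration, resolution 0.8, the replicate number or library as a block, and each library left out. A further alternative, without Sertoli clusters led by germ markers, was added after the data were seen.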

Additional observations from a re-analysis of the deposited data

Results flagged for a closer look

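The genotype difference of *Igfbp5* had opposite directions in RT-like and endothelial-like cells, with a log2 fold change of -1.0 in the former and 2.67 in the latter. Every *Sox17*-cKO library was below both controls in RT-like cells and above both in endothelial-like cells, and the difference between the classes was not tested. *Igfbp6* likewise had a log2 fold change of -2.44 in RT-like cells and 0.86 in SV Sertoli-like cells, with both *Sox17*-cKO libraries below the controls in the former and above them in the latter, and this difference was not tested either. With up to 6000 genes per cell the latter value turned to -0.026. None of these 4 values passed the threshold in edgeR. Both genes were picked because their genotypes separated in opposite directions, so that separation is no further evidence. Of 87 pairs of member and class, *Sox17*-cKO libraries lay above both controls in 9, below both in 5 and overlapped in 73. Separation of 2 libraries from 2 is common without any difference, and its share over all genes was not counted.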

How the results depend on the processing

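Of 254 counts of members past the threshold under other settings, 244 kept to within 1.5 times the reported count, counts of 0 that stayed at 0 included. Of 951 fold changes of members, 887 kept their direction and their side of the threshold. These were the fold changes between classes, between genotypes in RT-like and SV Sertoli-like cells and for *Igfbp5* in endothelial-like cells. Those of *Igf1*, *Igfbp5*, *Igfbp6* and *Igfbp7* in the interaction were also counted, and genotype values of other classes were not. In RT-like cells the count between genotypes went from 0 to 2 with no filter on low counts (*Igfbp6* and *Igfbp7*) and to 4 with the replicate block (*Igf1*, *Igfbp5*, *Igfbp6* and *Igfbp7*), and was 0 to 2 when a library was left out. The replicate number coincides with the Cell Ranger version, and the labels tie it to no litter or day. Same-numbered libraries deviated together, with r = 0.355 in RT-like, 0.372 in SV Sertoli-like and 0.381 in interstitial stromal-like cells. It was 0.475 in myoid-like, 0.574 in fibroblast-like and 0.579 in tubule Sertoli-like cells. Genotype tests without the block leave this shared deviation in their spread. With the block, all genes called in RT-like cells rose from 6 to 275. Over the settings the counts of all genes were 4 to 275 in RT-like cells and reached 5 in SV Sertoli-like, 54 in tubule Sertoli-like, 9 in interstitial stromal-like, 90 in fibroblast-like, 15 in myoid-like, 12 in pericyte-like, 16 in endothelial-like, 6 in Leydig-like, 27 in macrophage-like and 4 in germ-like cells, from 0 in each. In endothelial-like cells the members' count went from 0 to 1 with no filter (*Igfbp5*) and was 0 to 1 when a library was left out. The interaction had 1 member with no filter (*Igfbp6*) and 3 with the library as a block (*Igfbp5*, *Igfbp6* and *Igfbp7*), with 145 genes in all. Between SV and tubule Sertoli-like cells the count went from 3 to 6 with up to 6000 genes per cell, while the calls over all genes rose from 2648 to 3287. When a library was left out, the calls over all genes fell to 1610 of 2648 between SV and tubule Sertoli-like cells, to 1063 of 1739 for myoid-like and to 1840 of 2770 for fibroblast-like against interstitial stromal-like cells.

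Direction turned mostly for small or sparse values. In RT-like cells, without the highest doublet scores, the genotype log2 fold change was -0.038 for *Igfbp2*, 0.085 for *Igf1r* and -0.016 for *Igfbp4*. For *Igfbp2* it was -0.0069 with no filter and -0.17 with the replicate block. When a library was left out it ranged from -0.83 to 0.65 for *Igfbp2*, -0.37 to 0.12 for *Igf1r*, -0.15 to 0.28 for *Igfbp4* and, in SV Sertoli-like cells, -0.57 to 0.14 for *Igfbp3*. With up to 6000 genes, *Igfbp6* in SV Sertoli-like cells was at -0.026 between genotypes, and against tubule Sertoli-like cells *Igfbp7* was at 1.83 and *Igf1* at 1.41, both past the threshold (edgeR adjusted p = 0.00783 and 0.0318). *Igfbp5* in that contrast was at -0.24 without the highest doublet scores and at -4.70 to 0.72 when a library was left out, and *Igfbp7* at -0.81 to 0.26. Up to 6000 genes also gave -0.050 for *Igfbp6* in myoid-like and -0.0030 for *Igf1r* in fibroblast-like against interstitial stromal-like cells, with ranges of -0.021 to 0.24 and -0.060 to 0.14 when a library was left out. Endothelial-like against interstitial stromal-like values ranged from -0.0029 to 0.30 for *Igfbp7* and -0.30 to 0.40 for *Igf2r*. The cause of these changes was not tested. Endothelial-like cells without the highest doublet scores were not compared, as a library had under 5 cells.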

Other observations

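A cluster of 17 mesothelial-like cells, with 2 and 9 cells in the controls and 3 in each *Sox17*-cKO library, was too small for a test. It held 6.13% of all *Igfbp5* UMIs. Its *Igfbp5* was at 3126, 4395, 1927 and 5414 CPM, above every library of the other classes. *Igfbp6* was at a mean of 3393 CPM and *Igfbp7* at 1128 CPM there. The 4 mesothelial markers summed to 20.8 to 33.1 CPM in RT-like cells, with *Msln* at 0, beside 364 to 1271 CPM of *Igfbp5*.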
